A study of Mus musculus with 14 samples.

Results

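Gene expression was compared between fast-growing plexiform neurofibromas (PNs) and control dorsal root ganglia (DRGs) by bulk RNA-seq of whole tissue. The members were the 6 libraries labelled as fast growing in the natural-history cohort (PNs 1053, 1071, 1179, 1191, 1214, and 1216) and the 3 DRG libraries (DRG3, DRG4, and DRG5), chosen by their labels, so that 9 of the 14 bulk libraries of the count table were used. All mice had a mixed C57BL/6, I-129, and FVBN background, carried floxed *Nf1* (Nf1 fl/fl), and had received no drug. The PNs came from DhhCre;Nf1 fl/fl mice, in which Cre under the desert hedgehog promoter deletes *Nf1* in the Schwann cell (SC) lineage only, while the controls were DRGs with their nerves from Nf1 fl/fl mice without Cre. According to the methods, tissue was taken at 9 months, and a PN counted as fast growing when its volume on magnetic resonance images had increased by more than 35 mm3 during the last 2 months. A further 5 slow-growing PNs, with a change below 5 mm3, are used only where fast-growing PNs are set against them.

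PNs are benign tumors of the peripheral nerve sheath that arise in neurofibromatosis type 1. Neurofibromin, the product of *Nf1*, is a GTPase-activating protein that turns RAS off, and SCs without it keep RAS and the MAPK cascade active. The tumors also hold axons, fibroblasts, perineurial cells, vessels, macrophages, and mast cells in a collagen-rich matrix, and RNA from whole tissue adds up all of these. In such bulk samples, fewer cells of a type and less RNA per cell cannot be told apart.

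Between 9596773 and 12403819 reads per control library and between 12159630 and 17594164 per fast-growing PN were counted on genes. Levels are given as CPM, the counts scaled to library size with TMM factors, on which 3 counts correspond to between 0.165 and 0.335 CPM in a single library, a floor that covers counting error only. The ribosomal RNA precursor *Rn45s* took 16.2% to 17.59% of the counts in controls and 7.24% to 18.1% in fast-growing PNs. The PN libraries carry different mouse numbers, whereas nothing says whether the DRG libraries came from separate mice, so that p-values measure the spread between these libraries. Replicates differed beyond counting noise, with a chi-square per gene between 23.5 and 172. The labels do not say that the library kit kept strand, and for 56 of the 209 genes named here, such as *Corin*, *Epyc*, *Dhh*, and *Ccnd1*, exons overlap a gene on the other strand, whose reads cannot be told apart from theirs. PN 1191 stood apart by its neuronal transcripts and PN 1071 by its skeletal muscle transcripts, as described with those genes.

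The floxed gene was examined first. *Nf1* (chromosome 11, 79339693 to 79581612 of mm10, plus strand) was at 228, 158, and 138 CPM in DRG3, DRG4, and DRG5 and at 216 to 278 CPM (median 233) in fast-growing PNs, and DRG3 lay among the PNs. Its log2 fold change was 0.46 (standard error 0.17, edgeR adjusted p = 0.0718), so the libraries labelled PN did not have less of it. It passed the threshold in DESeq2 (adjusted p = 0.0413), in limma-voom (0.0494), in an edgeR fit of all 14 libraries (0.0387), and without DRG3 (0.00681), each time as higher in PNs. Counts cover the whole gene and all cells of the tissue, and this value therefore does not check the deletion. Among the labelled tissue's defining markers, the SC gene *Sox10* and the neurofilament gene *Nefl* were present in all 3 controls, at 118, 44.4, and 35.5 CPM and 1578, 661, and 416 CPM in the order DRG3, DRG4, and DRG5.

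Of 24062 genes in the table, 16037 passed edgeR's expression filter. Of these, 5043 (31.4%) had changed by edgeR's quasi-likelihood test. The p-values were adjusted by the method of Benjamini and Hochberg, a call needs an adjusted p under 0.05, and every edgeR adjusted p here is of this kind. In fast-growing PNs, 2371 genes (14.8%) were higher, with a median log2 fold change of 1.06, and 2672 (16.7%) were lower, with a median of -1.31. More than 4-fold changes were found for 442 higher and 796 lower genes. For 5168 genes (32.2%), all PNs were above or all were below the 3 controls, and 4516 of them were among the 5043. The median over all genes tested was 0.019. Leaving out DRG5 left 3342 changed genes (1666 lower), and leaving out DRG4 left 3603 (1522 higher). With the skeletal muscle and fat levels of each library as covariates in edgeR, 0 genes were called, 1007 had a p under 0.05 before adjustment, so that none of the calls named here held in that fit, and 135 of the 155 called genes named here kept their direction. The groups did not overlap in either level. Each level was the mean over a muscle or fat gene list, and members of these lists are thus part of their own covariate. The direction of such a member in that fit is not a separate result, and the 135 and the 155 include such members. Without PNs 1071 and 1191, which were doubted after their levels had been seen, 4793 genes had changed.

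**Figure D1:**
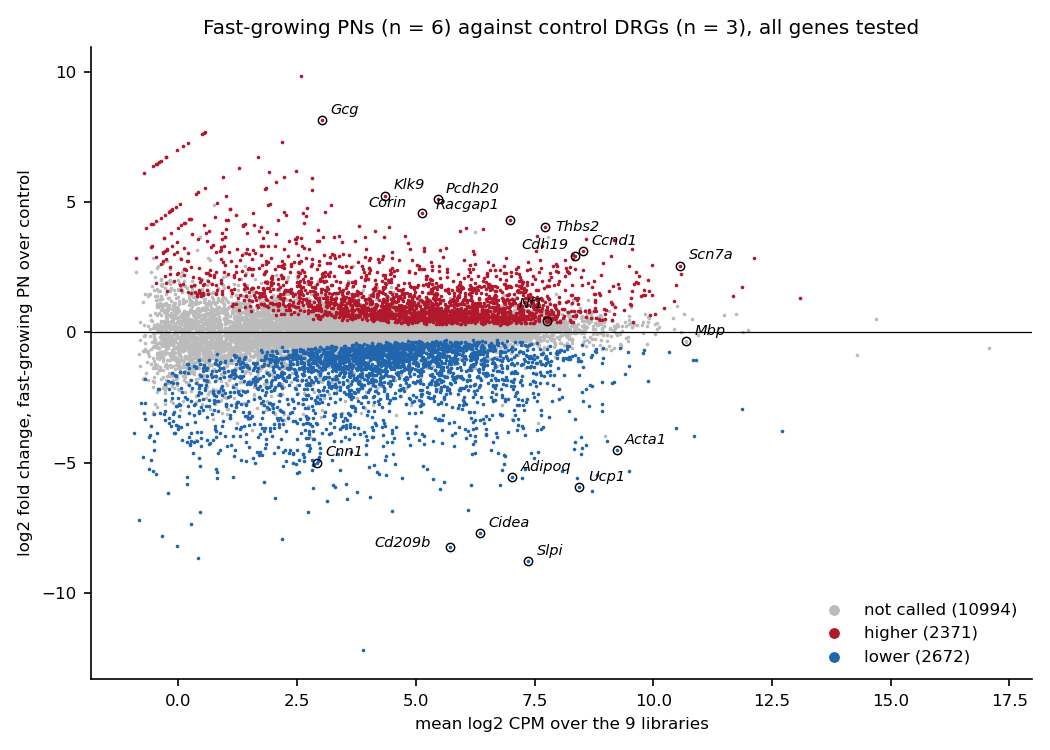
Log2 fold change of fast-growing PNs (n = 6) over controls (n = 3) against the mean log2 CPM of each of 16037 genes tested, with changed genes in color and the named genes labelled. The 2371 higher and 2672 lower genes lie on both sides of 0 at all levels, with *Gcg*, *Klk9*, and *Pcdh20* far above 0 and *Slpi*, *Cd209b*, and *Cidea* far below.

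The 10 largest rises, taken from genes without overlap between the groups whose mean log2 CPM was 3 or more, included a hormone precursor, a protease, and extracellular proteins. *Gcg*, which encodes the precursor of glucagon, had 1 count in the 3 controls together and 1059 in the fast-growing PNs, a ratio of 369.9 (95% counting interval 66.3 to 14625.2). Every counting interval here pools the libraries of a group and covers counting error only, not the spread between libraries. *Gcg* was at 2.73 to 20.7 CPM (median 12.9) in PNs (edgeR adjusted p = 0.000493). *Klk9*, a kallikrein-related serine protease, was at 1.29, 0.856, and 0.112 CPM in controls and 13.6 to 50.8 CPM (median 31.01) in PNs, and rose by 5.25 on the log2 scale (standard error 0.66, edgeR adjusted p = 0.000389). *Pcdh20*, a protocadherin, rose by 5.13 (edgeR adjusted p = 0.000174), from 1.98, 1.24, and 2.34 CPM in controls to 23.7 to 106 CPM (median 58.5). The choice of these genes required a large rise and no overlap, so that the gap between the groups is not a separate result. Their levels differed several-fold among the PNs.

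*Corin* (chromosome 5, 72300025 to 72504473) encodes the membrane protease that activates atrial natriuretic peptide. It was at 3.96, 1.14, and 1.23 CPM in controls and 41.98 to 71.5 CPM (median 47.7) in fast-growing PNs (log2 fold change 4.58, standard error 0.45, edgeR adjusted p = 9.98e-05). *Epyc*, a small leucine-rich proteoglycan, rose by 4.04, *Thbs2*, a matricellular protein, by 4.04, and *Nkd2*, an inhibitor of WNT signaling, by 4.02 on the log2 scale (edgeR adjusted p = 0.000765, 0.000345, and 2.59e-05). *Thbs2* was at 17.05, 17.4, and 21.8 CPM in controls and 178 to 646 CPM (median 259) in PNs.

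Another 2 genes of the 10 were tight among the tumors. *Racgap1* (chromosome 15, 99620496 to 99651656), a GTPase-activating protein needed for cytokinesis, was at 6.46, 8.85, and 12.5 CPM in controls and 162 to 217 CPM (median 183) in fast-growing PNs (log2 fold change 4.33, standard error 0.24, edgeR adjusted p = 9.9e-06). *1700025N23Rik*, a long noncoding RNA, was at 0.258, 1.05, and 0.112 CPM and 8.96 to 15.2 CPM (median 12.4) (log2 fold change 4.63, standard error 0.54, edgeR adjusted p = 0.000256). In slow-growing PNs, scaled apart from the 9 libraries, *Racgap1* was at 167 to 205 CPM (median 193) and *1700025N23Rik* at 11.4 to 13.9 CPM (median 12.4). Neither gene differed between fast-growing and slow-growing PNs beyond the spread (log2 fold change 0.02 and -0.025, edgeR adjusted p = 0.924 and 0.932).

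Among the 10 largest falls, *Cidea*, *Adig*, and *Cox8b* are genes of fat cells, *Actc1* and *Myl3* encode muscle contractile proteins, and *Cd209b* and *Stab2* encode receptors of macrophages and sinusoidal endothelium. *Mup10*, a major urinary protein, was at 16.4, 5.33, and 111 CPM in the controls and had 0 counts in all fast-growing PNs, which is at least 1312-fold lower against a floor of 3 counts over the group, or at least 322-fold without DRG5. *Slpi*, a secreted inhibitor of leukocyte proteases, was at 2.24, 135, and 1346 CPM in controls and 0.22 to 2.06 CPM (median 1.09) in PNs. *Cd209b* was at 3.79, 275, and 189.6 CPM and *Stab2* at 1.89, 83.6, and 57.7 CPM in controls, against 0 to 2.29 CPM (median 0.135) and 0.203 to 1.29 CPM (median 0.425) in PNs. The controls themselves differed many-fold in these 4 genes, with DRG3 or DRG4 the lowest. The log2 fold changes of *Slpi*, *Cd209b*, and *Stab2* were -8.78, -8.24, and -6.32 (edgeR adjusted p = 0.00175, 0.0018, and 0.000975). Without PNs 1071 and 1191 they were -9.35, -9.43, and -6.14 (edgeR adjusted p = 0.00822, 0.00321, and 0.00631). *Cidea*, a lipid droplet protein, was at 182, 291, and 258 CPM in controls and 0 to 4.95 CPM (median 0.338) in PNs, and *Cox8b*, a brown fat and muscle subunit of cytochrome oxidase, at 153, 175, and 273 CPM and 0.0732 to 4.77 CPM (median 0.963). *Cidea*, *Cox8b*, and *Adig*, which fat cells induce as they mature, fell (log2 fold change -7.69, -6.83, and -6.87, edgeR adjusted p = 0.000433, 0.000281, and 9.91e-05), with even levels over the controls. *Actc1* and *Myl3* fell (log2 fold change -6.48 and -6.38, edgeR adjusted p = 0.00168 and 0.00295) and were highest in DRG5. *A530016L24Rik* fell by 6.12 with an even control level, from 42.96, 47.8, and 27.3 CPM to 0 to 1.75 CPM (median 0.232) (edgeR adjusted p = 0.000636). *Cd209b* lost its call in limma-voom (adjusted p = 0.161). *Stab2* lost its call in limma-voom (adjusted p = 0.11). *Slpi* lost its call in limma-voom (adjusted p = 0.191).

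Genes were also read by 55 lists of 1013 genes in all, of cell types and pathways. The summed level per library of 26 lists did not overlap between the groups, 16 being higher and 10 lower in fast-growing PNs. By the mean log2 level of the members, 16 lists did not overlap. Of all single genes tested, 32.2% did not overlap. The count of members called of a list is given beside its median log2 fold change. Over all genes, 14.8% were called higher and 16.7% lower. The lists were written with earlier results of these data known, so that these shares give a scale and not a test. Counts that moved by over 1.5-fold without 1 library or with the trend of length and GC content removed are given with that fit. Counts moved as far by another scaling, filter, tool, or choice of libraries are given with the processing alternatives.

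Most nonmyelinating and immature SC genes rose, and most myelin genes were not called. Of 19 tested members of the nonmyelinating and immature SC list, 13 rose and 0 fell (median log2 fold change 1.76), and their summed level was 2301, 1164, and 1023 CPM in DRG3, DRG4, and DRG5 and 5246 to 7069 CPM (median 5969) in PNs. *Cdh19*, a cadherin of the SC lineage, was at 88.6, 46.5, and 43.4 CPM in controls and 385 to 556 CPM (median 456) in PNs and rose by 2.95 (standard error 0.28, edgeR adjusted p = 8.2e-05). *Scn7a*, a sodium channel of nonmyelinating SCs, rose by 2.56 and *Ncam1*, a cell adhesion molecule of the same cells, by 2.55 (edgeR adjusted p = 0.000273 and 8.65e-05). *Scn7a* reached 1661 to 2753 CPM (median 2078). The largest rise of the list's lead genes was in *Gfap*, an intermediate filament of glia, from 2.58, 0.571, and 3.68 CPM to 17.7 to 49.8 CPM (median 26.3) (log2 fold change 3.66, edgeR adjusted p = 0.00122). The SC transcription factors *Sox2* and *Sox10* rose by 2.85 and 1.29 (edgeR adjusted p = 0.0135 and 0.018). *Ngfr*, the low-affinity neurotrophin receptor of immature and nonmyelinating SCs, did not pass the test, with 196, 96.7, and 54.7 CPM in controls and 27.8 to 355 CPM (median 185) in PNs. The edgeR adjusted p, in parentheses, was over the threshold for *Sox2* without DRG4 (0.0566), and *Sox10* without DRG4 (0.0783) and DRG5 (0.0614).

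Of 19 myelinating SC genes, 5 rose and 0 fell (median -0.017; 8 higher without DRG3). *Mbp*, a gene of compact myelin, had a log2 fold change of -0.34 (edgeR adjusted p = 0.521), and *Pmp22*, *Prx*, and the myelin regulator *Egr2* did not pass either (edgeR adjusted p = 0.977, 0.256, and 0.24). *Mbp* was at 3389.8, 1227, and 1136 CPM in controls and 1142 to 1938 CPM (median 1489) in PNs, with DRG3 above all tumors and DRG4 within their range. *Gldn*, which SCs secrete to cluster sodium channels at nodes of Ranvier, was the strongest of the 5, from 83.3, 47.7, and 34.8 CPM to 284 to 408 CPM (median 347) (log2 fold change 2.65, standard error 0.29, edgeR adjusted p = 0.000186). *Dhh*, the ligand whose promoter drives Cre here, rose by 2.36 to 328 to 469 CPM (median 413) (edgeR adjusted p = 0.000698). DRG3 was the highest control for all 6 of these genes. *Egr2* was called higher without DRG3 (adjusted p = 0.0463).

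Satellite glia and neurons gave mixed results. Of 10 satellite glia genes, 3 rose and 3 fell (median -0.043). *Kcnj10*, the potassium channel Kir4.1 of satellite glia, rose from 38.6, 29.4, and 18.7 CPM to 224 to 398 CPM (median 277) and *Lgi4*, a secreted glial protein, from 46.3, 21.7, and 20.5 CPM to 231 to 315 CPM (median 258) (log2 fold change 3.31 and 3.14, edgeR adjusted p = 5.85e-05 and 8.43e-05). *Gja1*, the gap junction protein connexin 43, fell by 1.26 (edgeR adjusted p = 0.00133), while *Fabp7*, a fatty acid binding protein of satellite glia, was not called (edgeR adjusted p = 0.768). None of 16 pan-neuronal genes was called by edgeR (median 0.38), and 0 of them had an unadjusted p under 0.05. Their summed level was 6393, 3108, and 1898 CPM in DRG3, DRG4, and DRG5, and 90.1 to 7691 CPM (median 4699) in PNs, of which 90.1 CPM belonged to PN 1191 alone. The other fast-growing PNs were at 2526 CPM or higher. *Nefl*, the light neurofilament chain, was at 3.20 CPM in PN 1191 against a median of 948 CPM over the fast-growing PNs.

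Of 17 sensory neuron genes tested, 2 rose (*Ntrk2* and *Nppb*) and 1 fell (*Pvalb*), with a median of 0.86, the count of 2 falling to 1 where *Nppb* lost its call. *Ntrk2*, the receptor of BDNF that SCs also express, rose by 1.32 from 214, 135, and 142 CPM to 348 to 458 CPM (median 395) (edgeR adjusted p = 0.000744). *Nppb*, a natriuretic peptide of itch neurons, had 3 counts in the controls and 132 in the PNs, a ratio of 15.4 (95% counting interval 5.15 to 75.5, without the spread between libraries). *Pvalb*, which fell, is also abundant in fast skeletal muscle and is a member of the skeletal muscle list. It was at 112, 268, and 426 CPM in controls, and the cause of its fall was not tested. *Calca* and *Scn10a*, defining genes of nociceptors, had edgeR adjusted p of 0.619 and 0.505. Of 12 genes of the response to nerve injury, 3 rose and 0 fell (median 0.51; 1 higher without DRG4, 1 lower without DRG4 or PN 1053). *Flrt3*, an adhesion protein of regenerating neurons, rose by 1.68, from 21.3, 21.7, and 19.3 CPM to 55.8 to 77.1 CPM (median 66.8) (edgeR adjusted p = 4.94e-05), and *Atf3*, the injury-induced transcription factor, had a log2 fold change of -0.87 (edgeR adjusted p = 0.0744). Calls lost with 1 library left out, with the edgeR adjusted p in parentheses, were those of *Nppb* without DRG3 (0.115), DRG4 (0.143), PN 1053 (0.0565), PN 1071 (0.0683), PN 1179 (0.0525), PN 1214 (0.0704), and PN 1216 (0.0594). *Nppb* lost its call in limma-voom (adjusted p = 0.0944). *Atf3* was called lower in DESeq2 (adjusted p = 0.0492), without DRG4 (0.0435), and without PN 1053 (0.047).

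**Figure D2:**
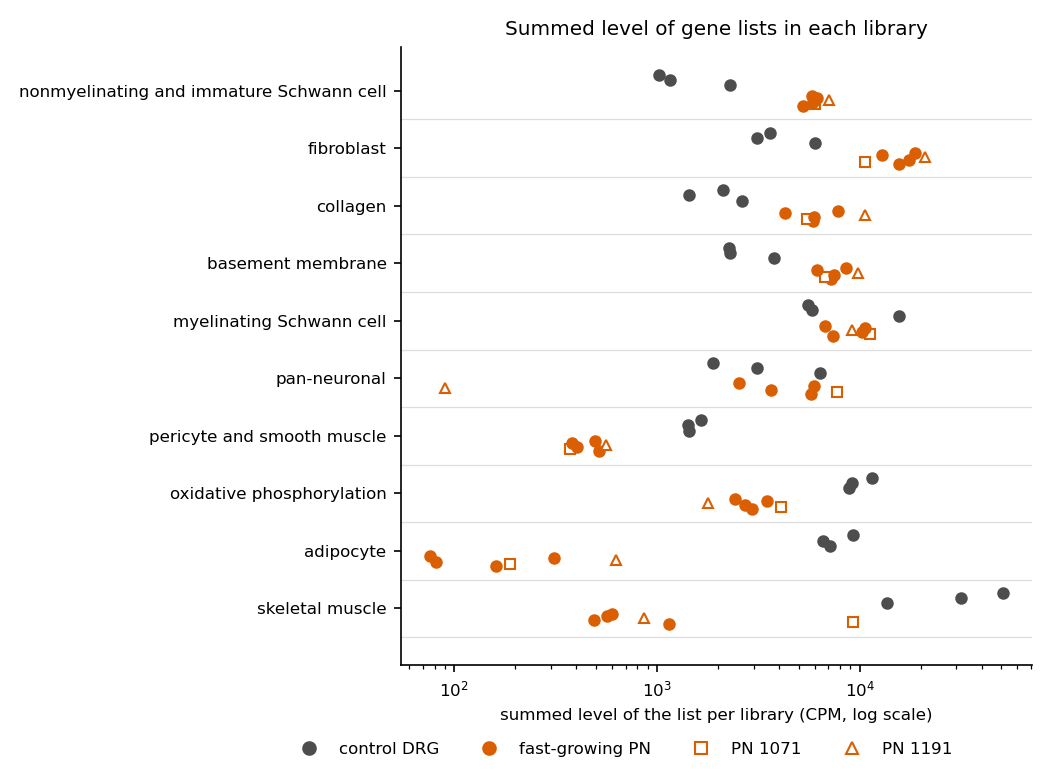
Summed CPM of the members of 10 gene lists in each control (n = 3) and fast-growing PN (n = 6), on a log axis, with 1 point per library and PNs 1071 and 1191 drawn as open symbols. Nonmyelinating SC, fibroblast, collagen, and basement membrane sums were higher in every PN than in every control, muscle, fat, mural cell, and respiratory chain sums were lower, and myelin and neuronal sums overlapped.

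Of 19 fibroblast genes, 11 rose and 2 fell (median 1.16), and the summed level was 5997, 3115, and 3603 CPM in DRG3, DRG4, and DRG5 and 10604 to 20972 CPM (median 16587) in PNs, whereas the mean log2 level of the members overlapped between the groups. In other fits, the counts were 7 higher without DRG4, 0 lower without DRG5 and with the trend of length and GC content removed, 1 lower without DRG3, DRG4, PN 1053, PN 1179, PN 1214, or PN 1216. *Apod*, an apolipoprotein of nerve fibroblasts, was at 1432, 600.1, and 567 CPM in controls and 4004 to 8868 CPM (median 6201) in PNs (log2 fold change 2.86, standard error 0.41, edgeR adjusted p = 0.000855). *Abca8a*, a lipid transporter, rose by 2.33 and *Lum*, a collagen-binding proteoglycan, by 2.54 (edgeR adjusted p = 0.000117 and 0.00157). *Pdgfra*, the receptor that defines fibroblasts, rose by 1.16 from 83.9, 68.5, and 65.4 CPM to 92.2 to 208 CPM (median 161) (edgeR adjusted p = 0.00625). *Dcn*, another small proteoglycan, rose by 1.41 (edgeR adjusted p = 0.0133), although the lowest PN lay below the highest control. The perineurial list had 3 rises among 11 genes and 0 falls, with a median of 0.12 and 1 higher without DRG4 or DRG5, 1 lower without PN 1071. Its tight junction gene *Cldn1* rose by 2.32, from 122, 58.2, and 61.5 CPM to 127 to 713 CPM (median 424) (edgeR adjusted p = 0.00921), and the perineurial glucose transporter *Slc2a1* did not pass (edgeR adjusted p = 0.97). By leaving out 1 library, the edgeR adjusted p passed above the threshold for *Dcn* without DRG4 (0.0625) and DRG5 (0.0573).

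Most collagen and basement membrane genes rose. Of 27 collagen genes, 19 rose and 0 fell (median 1.43; 1 lower without PN 1191), with a summed level of 2621, 1439, and 2109 CPM in DRG3, DRG4, and DRG5 and 4289.8 to 10627 CPM (median 5940.2) in PNs. *Col28a1*, a collagen of nonmyelinating SCs, was at 31.5, 17.8, and 12.9 CPM in controls and 178 to 369 CPM (median 257) in PNs, and *Col16a1* at 11.5, 6.09, and 6.02 CPM and 76.2 to 150.5 CPM (median 133) (log2 fold change 3.71 and 3.97, edgeR adjusted p = 9.91e-05 and 5.12e-05). The fibrillar collagen gene *Col1a1* rose by 1.43 (edgeR adjusted p = 0.0239), and *Col4a1*, the main chain of basement membrane collagen, had a log2 fold change of 0.55 that did not pass (edgeR adjusted p = 0.192). Of 22 basement membrane genes, 14 rose and 0 fell (median 1.04). *Lama2* and *Lamc1*, chains of the laminin around SCs, rose by 2.21 and 1.79, *Agrn*, a heparan sulfate proteoglycan, by 1.77, and *Itga2*, a collagen receptor, by 2.36 (edgeR adjusted p = 0.000548, 0.00125, 0.000236, and 0.000253). *Itgb4*, the laminin receptor chain of myelinating SCs, was not called (edgeR adjusted p = 0.264). An edgeR adjusted p above the threshold was obtained for *Col1a1* without DRG4 (0.0512). *Col1a1* lost its call in an edgeR fit of all 14 libraries (adjusted p = 0.0571) and without PNs 1071 and 1191 (0.0507). *Itgb4* was called higher without DRG3 (adjusted p = 0.0326).

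Of 22 matricellular and proteoglycan genes, 9 rose and 3 fell (median 0.98; 1 lower without DRG3). *Postn*, periostin, was at 127, 97.7, and 123 CPM in controls and 667 to 2225 CPM (median 890.4) in PNs (log2 fold change 3.21, standard error 0.44, edgeR adjusted p = 0.000629), and *Vcan*, versican, rose by 2.81 (edgeR adjusted p = 0.00106). *Tnc*, tenascin C, did not pass (edgeR adjusted p = 0.275), with 26.8, 52.2, and 102 CPM in the controls. Among 23 metalloproteinases and their inhibitors, 13 rose and 1 fell (median 1.05; 2 lower without PN 1179 or PN 1191). *Mmp17*, a membrane-anchored metalloproteinase, rose by 3.15 and the gelatinase *Mmp2* by 2.18 (edgeR adjusted p = 0.000314 and 0.000851). The inhibitor *Timp1* rose from 2.497, 1.05, and 5.47 CPM to 25.6 to 60.4 CPM (median 33.8) and *Timp3* from 1067, 569, and 603 CPM to 1417 to 2095 CPM (median 1671) (edgeR adjusted p = 0.000875 and 0.00481). *Timp4*, an inhibitor abundant in fat and muscle, was the 1 called member that fell (log2 fold change -2.92, edgeR adjusted p = 0.00544).

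Summed transcripts of skeletal muscle and fat were lower in every fast-growing PN than in every control. Of 20 muscle genes, 18 fell and 0 rose (median -4.07; 8 lower without DRG5). Their summed level was 13573, 31641, and 51085 CPM in DRG3, DRG4, and DRG5, and 489 to 9255 CPM (median 730.0) in PNs, of which PN 1071 had the highest value and the next had 1151 CPM. *Acta1*, skeletal actin, was at 596, 1637, and 2744 CPM in controls and 13.3 to 308 CPM (median 23.3) in PNs, and *Ckm*, muscle creatine kinase, at 223, 437, and 774 CPM and 2.301 to 85.1 CPM (median 6.59) (log2 fold change -4.53 and -4.64, edgeR adjusted p = 0.00944 and 0.00953). Without PNs 1071 and 1191, the log2 fold changes of *Acta1* and *Ckm* were -6.06 and -6.40 (edgeR adjusted p = 0.000485 and 0.000297). DRG5 held the most muscle RNA and DRG3 the least among the controls. All 16 adipocyte genes tested fell (median -5.29), from a summed level of 7096, 6561, and 9231 CPM in DRG3, DRG4, and DRG5 to 75.8 to 630.0 CPM (median 174). *Adipoq*, the fat hormone adiponectin, was at 367, 296, and 465 CPM and 0.0732 to 29.7 CPM (median 3.98), and *Plin1*, a lipid droplet protein, at 219, 186, and 217 CPM and 0 to 9.53 CPM (median 2.81) (edgeR adjusted p = 0.00625 and 0.00224). Of 12 brown fat genes, 10 fell and 1 rose (median -4.14; 0 higher without DRG4, 2 higher without DRG3 or PN 1214, 6 lower without DRG5), and *Ucp1*, the uncoupling protein that defines brown fat, was at 832, 840.2, and 1362 CPM in controls and 0.0549 to 76.2 CPM (median 2.795) in PNs (edgeR adjusted p = 0.0198). The lipases *Pnpla2* and *Lipe* were among the genes with the lowest edgeR adjusted p, both as falls (log2 fold change -3.61 and -3.78, edgeR adjusted p = 7.45e-06 for both). The edgeR adjusted p, in parentheses, was over the threshold for *Ucp1* without DRG5 (0.0554). *Ucp1* lost its call without PNs 1071 and 1191 (adjusted p = 0.0595).

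All 20 tested genes of fatty acid oxidation and the citrate cycle fell (median -2.33), as did all 24 of oxidative phosphorylation (median -2.28), against 16.7% of all genes that were lower. The summed levels were 7550.0, 7688, and 9834 CPM in DRG3, DRG4, and DRG5 for the first list and 1288 to 2149.8 CPM (median 1619.6) in PNs. *Acadm*, which begins the oxidation of medium-chain fatty acids, was at 296, 286, and 383 CPM in controls and 31.8 to 48.6 CPM (median 39.6) in PNs (log2 fold change -2.98, standard error 0.16, edgeR adjusted p = 9.8e-06). *Sdha*, a subunit of succinate dehydrogenase, *Ndufv2*, of complex I, and *Cox4i1*, of complex IV, fell (log2 fold change -2.05, -2.08, and -2.54, edgeR adjusted p = 5.65e-05, 1.85e-05, and 5.67e-05). *Cpt1b*, the muscle and brown fat form of carnitine palmitoyltransferase, was at 1.03, 1.05, and 2.901 CPM in controls and 0 to 0.144 CPM (median 0.0338) in PNs. These PN levels all lay below the 3-count floor of a single library. The summed muscle and adipocyte levels given before were lower in the same PNs, and among the PNs, PN 1071 had the highest muscle sum (9255 CPM) and the highest sums of fatty acid oxidation (2149.8 CPM) and oxidative phosphorylation (4076 CPM). PN 1191 had the highest adipocyte sum (630.0 CPM) and the lowest sums of fatty acid oxidation (1288 CPM) and oxidative phosphorylation (1792 CPM). The pan-neuronal sums, which overlap between the groups, had the same order over the 6 PNs as the sums of both of these lists, from 90.1 CPM in PN 1191 to 7691 CPM in PN 1071, and their part in the result was not tested. As the groups did not overlap in the muscle and fat levels, these and the group cannot be told apart. With the levels as covariates, the log2 fold change was -1.69 for *Acadm*, -1.69 for *Sdha*, -1.53 for *Ndufv2*, -2.62 for *Cox4i1*, and 0.62 for *Cpt1b*, whose direction turned (edgeR adjusted p = 0.657, 0.815, 0.662, 0.662, and 0.981).

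Of 21 glycolysis genes, 14 fell and 0 rose (median -1.24; 8 lower without DRG5). *Hk2*, the hexokinase of muscle and fat, fell by 3.05, from 148, 214, and 149 CPM to 17.9 to 23.3 CPM (median 20.3) (standard error 0.14, edgeR adjusted p = 7.45e-06). *Ldha*, lactate dehydrogenase A, fell by 1.95 (edgeR adjusted p = 0.000122). Of 28 cytosolic ribosomal protein genes, 23 fell (median -1.08), with 11 lower with the trend of length and GC content removed. *Rps2* fell from 372, 538, and 630.3 CPM to 129 to 213 CPM (median 160.4) and *Rpl3* from 336, 424, and 365 CPM to 224 to 296 CPM (median 261) (log2 fold change -1.65 and -0.51, edgeR adjusted p = 0.000369 and 0.0158). Ribosomal genes have short transcripts, and fold changes followed transcript length over all genes. The part of length in the ribosomal falls was not tested. The median log2 fold change was -0.38 in the fifth of genes with the shortest transcripts (259 higher and 948 lower) and 0.22 in the fifth with the longest (664 higher and 282 lower). Calls lost with 1 library left out, with the edgeR adjusted p in parentheses, were those of *Rpl3* without DRG4 (0.0843) and DRG5 (0.0547). *Rpl3* lost its call with the trend of length and GC content removed (adjusted p = 0.461).

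Most genes of pericytes and smooth muscle fell. Of 13 pericyte and smooth muscle genes, 10 fell and 1 rose (median -2.59; 0 higher without DRG4), and the summed level was 1440.2, 1417, and 1657 CPM in DRG3, DRG4, and DRG5 and 372 to 557 CPM (median 448) in PNs. *Cnn1*, calponin of smooth muscle, fell by 5.0, from 21.01, 20.4, and 22.3 CPM to 0.262 to 1.01 CPM (median 0.738) (standard error 0.33, edgeR adjusted p = 1.87e-05). *Acta2*, smooth muscle actin, was at 383, 289.9, and 329 CPM and 13.2 to 68.2 CPM (median 26.1), and *Myh11*, smooth muscle myosin, at 224, 184, and 169 CPM and 5.296 to 27.8 CPM (median 13.2) (edgeR adjusted p = 0.000443 and 0.000291). All controls lay several-fold above all PNs for these 3 genes. Of 15 endothelial genes, 0 rose and 7 fell (median -1.08; 3 lower without DRG5, 4 lower without DRG4). *Kdr*, the VEGF receptor of endothelium, fell by 1.99, from 48.2, 93.8, and 95.05 CPM to 13 to 27.2 CPM (median 18.9) (edgeR adjusted p = 0.000604). *Pecam1* and *Cdh5*, which define endothelium, did not pass, with log2 fold changes of -1.19 and -0.58 (edgeR adjusted p = 0.0631 and 0.262). Of 3 erythroid genes tested, 3 fell (median -2.57; 1 lower without DRG5), *Slc4a1* among them, with *Alas2*, which begins heme synthesis, at 103, 57.3, and 109.9 CPM in controls and 14.2 to 31.02 CPM (median 24.2) in PNs (edgeR adjusted p = 0.000748). The hemoglobin genes *Hba-a1* and *Hbb-bs* had at most 1 count in any of the 9 libraries. By leaving out 1 library, the edgeR adjusted p passed above the threshold for *Slc4a1* without DRG5 (0.128). *Pecam1* was called lower in DESeq2 (adjusted p = 0.0315), in limma-trend on the deposited log2 values (0.0491), without DRG3 (0.046), without PN 1191 (0.00842), and without PNs 1071 and 1191 (0.0137).

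Of 18 macrophage genes, 4 rose and 1 fell (median 0.45; 2 higher in limma-voom and in an edgeR fit of all 14 libraries). *Cx3cr1*, the fractalkine receptor of tissue macrophages, rose from 2.497, 7.899, and 5.69 CPM to 25.3 to 81.9 CPM (median 53.1) and *Trem2*, a lipid-sensing receptor, from 0.43, 1.24, and 0.335 CPM to 2.37 to 12.7 CPM (median 9.48) (log2 fold change 3.25 and 3.61, edgeR adjusted p = 0.00144 and 0.00408). *Mertk*, a receptor for dying cells, rose by 1.14 (edgeR adjusted p = 0.00362). The general macrophage genes *Csf1r* and *C1qa* did not pass, and *Csf1r* was at 42.2, 138, and 111 CPM in controls and 71.6 to 193 CPM (median 153) in PNs. *Lyve1*, of vessel-associated macrophages and lymphatic endothelium, was the 1 that fell (log2 fold change -2.56, edgeR adjusted p = 0.0324), and the list had 2 falls without PN 1191. Of 14 neutrophil genes, 6 fell, and their summed level was 288, 125, and 1978 CPM in DRG3, DRG4, and DRG5 and 63.3 to 411 CPM (median 135) in PNs, with DRG5 above all others (median -2.54; 0 lower without DRG5, 2 lower without PN 1053 or PN 1216 and with the trend of length and GC content removed, 3 lower without PN 1071 or PN 1214; 0 lower in limma-voom and 1 lower in limma-trend). *S100a8*, a subunit of calprotectin, was at 52.3, 17.3, and 440.2 CPM in controls and 3.02 to 36.1 CPM (median 9.69) in PNs. An edgeR adjusted p above the threshold was obtained for *Lyve1* without DRG4 (0.107), DRG5 (0.101), PN 1053 (0.0666), PN 1071 (0.0574), PN 1179 (0.0637), PN 1214 (0.0597), and PN 1216 (0.0622), and *S100a8* without DRG5 (0.28). *Trem2* lost its call in limma-voom (adjusted p = 0.0672). *Mertk* lost its call in an edgeR fit of all 14 libraries (adjusted p = 0.0527). *S100a8* lost its call in limma-voom (adjusted p = 0.0559), in limma-trend on the deposited log2 values (0.0513), and without PNs 1071 and 1191 (0.0527).

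Lymphocyte genes separated the controls from each other. The summed level of 15 tested genes was 10.8, 547, and 438 CPM in DRG3, DRG4, and DRG5, and 13.1 to 182 CPM (median 20.3) in PNs. *Cd3e*, of T cells, was at 1.29, 69.1, and 48.5 CPM in the controls (edgeR adjusted p = 0.11). The cytotoxic granule gene *Nkg7* alone fell (edgeR adjusted p = 0.0333; median of the list -2.53), and in other fits the list had 0 lower without DRG4, DRG5, PN 1053, PN 1214, or PN 1216 and with the trend of length and GC content removed, 5 lower without PN 1179, 6 lower without PN 1191, 7 lower without DRG3, and 5 lower in DESeq2. MHC class II genes followed the same order of controls. Their summed level was 373, 3339.6, and 2729 CPM in DRG3, DRG4, and DRG5 and 1181 to 6308 CPM (median 3579) in PNs, 0 of 11 were called by edgeR (median -0.23), and 2 of the 11 had an unadjusted p under 0.05. *Cd74*, the class II invariant chain, was at 125, 1306, and 1176 CPM in controls and 582 to 3214 CPM (median 1849) in PNs (edgeR adjusted p = 0.333). Of 13 MHC class I genes, 1 rose, *Pdia3* of the peptide-loading complex (median -0.44; 3 lower without DRG3). Of 11 mast cell genes, 3 fell and 1 rose (median -0.81; 0 higher without DRG3, DRG4, DRG5, PN 1179, or PN 1191, 1 lower without DRG5, 5 lower without PN 1191). *Mcpt4*, a connective tissue mast cell protease, fell by 2.43, from 30.8, 37.3, and 44.6 CPM to 2.42 to 19.4 CPM (median 4.75), while *Kit* and *Cpa3*, the defining genes of mast cells, did not pass (edgeR adjusted p = 0.0109, 0.726, and 0.263). The edgeR adjusted p, in parentheses, was over the threshold for *Nkg7* without DRG4 (0.156), DRG5 (0.0879), PN 1053 (0.0643), PN 1214 (0.0656), and PN 1216 (0.0704). *Nkg7* lost its call in limma-voom (adjusted p = 0.201), in limma-trend on the deposited log2 values (0.149), with the trend of length and GC content removed (0.0698), and without PNs 1071 and 1191 (0.0578). *Cd3e* was called lower in DESeq2 (adjusted p = 0.0424), without DRG3 (0.0466), without PN 1191 (0.0175), and without PNs 1071 and 1191 (0.0355). *Cpa3* was called lower without PN 1191 (adjusted p = 0.00179) and without PNs 1071 and 1191 (0.00393).

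*C4b*, complement component 4, rose from 70.9, 77.4, and 53.2 CPM to 253 to 415 CPM (median 351), and *C3*, the central component and an abundant fat transcript, fell from 540.1, 911, and 1059 CPM to 35.3 to 338 CPM (median 73.8) (log2 fold change 2.34 and -2.64, edgeR adjusted p = 7.81e-05 and 0.016). Of 19 complement genes, 3 rose and 5 fell (median -0.057; 5 higher without PN 1071). *C3ar1*, the receptor of the C3a fragment, was among the rises, by 2.44 (edgeR adjusted p = 0.00326). Of 19 chemokine genes, 5 rose and 4 fell (median 0.87; 3 higher without DRG4; 3 higher and 2 lower in limma-voom). *Ccl2*, which attracts monocytes, was at 3.87, 4.47, and 4.46 CPM in controls and 10.3 to 89.1 CPM (median 23.9) in PNs, and *Ccl11*, eotaxin, at 65.6, 42.7, and 49.98 CPM and 155 to 325 CPM (median 231) (edgeR adjusted p = 0.0142 and 0.000861). *Cxcl12*, a stromal chemokine, fell by 1.83, from 92.1, 149, and 236 CPM to 37.5 to 55.2 CPM (median 44.9) (edgeR adjusted p = 0.000569). Calls lost with 1 library left out, with the edgeR adjusted p in parentheses, were those of *C3* without DRG5 (0.0592), and *Ccl2* without DRG4 (0.0544) and DRG5 (0.0524). *Ccl2* lost its call in limma-voom (adjusted p = 0.0906).

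Of 27 tested interferon-stimulated genes, 11 rose and 1 fell (median 1.13). Their summed level overlapped between the groups, at 585, 1095, and 937 CPM in DRG3, DRG4, and DRG5 and 911 to 1746 CPM (median 1312) in PNs. *Ifit1*, which binds foreign RNA, was at 7.83, 9.52, and 9.37 CPM in controls and 45.97 to 88.7 CPM (median 64.9) in PNs (log2 fold change 2.91, standard error 0.24, edgeR adjusted p = 4.62e-05). *Oasl2*, an oligoadenylate synthetase-like gene, was at 24.8, 28.5, and 24.8 CPM and 94.03 to 145 CPM (median 128), and *Ifit2* at 25.5, 25.03, and 17.7 CPM and 56.3 to 83.9 CPM (median 70.4) (edgeR adjusted p = 4.17e-05 and 0.000218). All 3 were named for the lowest p among called members of the list, a choice that favors a wide gap and little spread. *Isg15*, a ubiquitin-like modifier, rose by 1.24 (edgeR adjusted p = 0.0149). *Irf7*, the transcription factor that amplifies the response, did not pass (edgeR adjusted p = 0.762), and *Ifi27*, a mitochondrial protein of the family, was the 1 that fell (log2 fold change -1.35, edgeR adjusted p = 0.000854). Members of the *Ifit* family are similar in sequence, so that the split of reads between them is uncertain.

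Promoters of 4 members that rose are shown because interferon signaling acts through paired GAAA elements in such regions. Each sequence is the 250 bases before a RefSeq start on GRCm38.p6, read 5′ to 3′ on the gene's strand, with matches to GAAANNGAAA on either strand in capitals, where neighboring matches may overlap. They are *Ifit1* (chr19:34640639-34640888, plus strand), *Ifit3* (chr19:34583279-34583528, plus strand), *Isg15* (chr4:156200819-156201068, minus strand), and *Oasl2* (chr5:114896684-114896933, plus strand).
Ifit1: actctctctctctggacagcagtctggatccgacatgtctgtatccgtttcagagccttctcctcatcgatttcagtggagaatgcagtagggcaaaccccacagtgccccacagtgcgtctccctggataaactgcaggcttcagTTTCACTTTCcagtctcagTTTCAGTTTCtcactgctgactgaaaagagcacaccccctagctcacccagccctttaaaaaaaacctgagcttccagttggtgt
Ifit3: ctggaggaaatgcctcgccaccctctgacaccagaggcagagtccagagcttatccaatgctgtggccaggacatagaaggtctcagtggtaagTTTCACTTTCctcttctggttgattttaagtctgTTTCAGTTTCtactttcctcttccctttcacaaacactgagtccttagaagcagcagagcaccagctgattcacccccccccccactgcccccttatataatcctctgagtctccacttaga
Isg15: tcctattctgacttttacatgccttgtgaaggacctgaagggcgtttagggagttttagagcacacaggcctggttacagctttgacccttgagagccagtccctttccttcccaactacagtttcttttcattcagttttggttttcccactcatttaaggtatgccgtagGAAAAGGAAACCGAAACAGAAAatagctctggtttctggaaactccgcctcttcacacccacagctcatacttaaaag
Oasl2: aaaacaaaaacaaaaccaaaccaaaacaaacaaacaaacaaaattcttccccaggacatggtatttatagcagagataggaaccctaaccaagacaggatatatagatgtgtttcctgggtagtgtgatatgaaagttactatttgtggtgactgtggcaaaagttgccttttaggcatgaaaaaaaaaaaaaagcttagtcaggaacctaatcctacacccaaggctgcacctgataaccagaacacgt
The letters occur 2 times before *Ifit1*, beginning 104 and 85 bases upstream, 2 times before *Ifit3*, 3 times before *Isg15*, and not in this window of *Oasl2*. Of the 11 members that rose, 9 had a RefSeq promoter and 4 of these held a match, as did 5 of 10 members that were not called, against 2.98% of 32851 promoters of the same length. Members are counted by gene, with a match in any of their promoters, whereas the 2.98% counts single promoters. *Ifit3* itself rose by 2.42, from 9.04, 10.7, and 7.14 CPM to 27.9 to 67.9 CPM (median 49.5) (edgeR adjusted p = 0.000705).

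**Figure D3:**
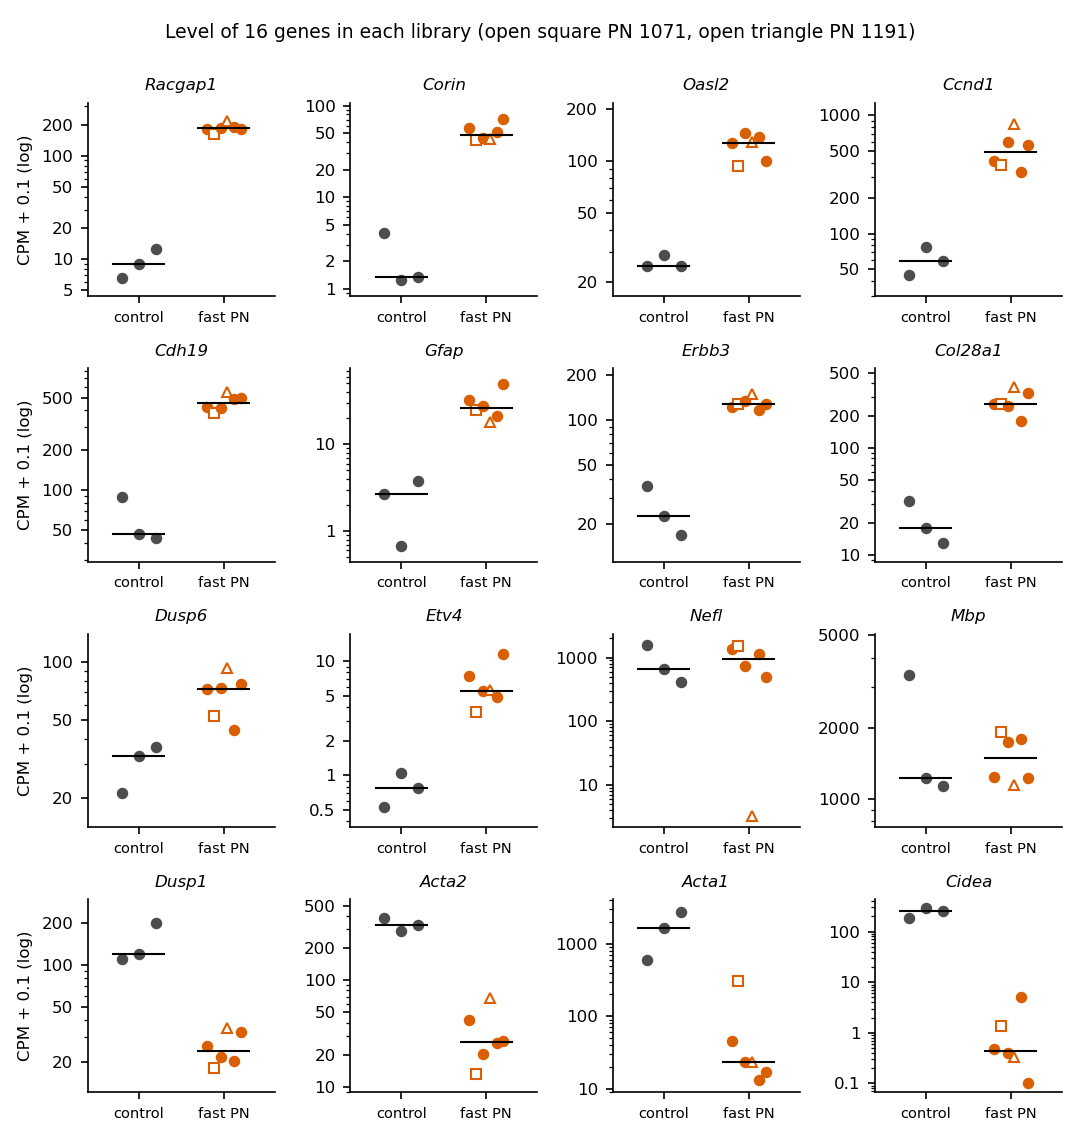
Level of 16 named genes in each control (n = 3) and fast-growing PN (n = 6) as CPM on a log axis after adding 0.1, with 1 point per library and a line at the group median. PN 1071 is an open square and PN 1191 an open triangle. *Racgap1* and *Oasl2* are tight in the PNs, *Acta1* and *Cidea* fall far below the controls, and *Mbp* and *Nefl* overlap.

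More RAS-MAPK feedback genes rose than fell, and more immediate early genes fell than rose. The feedback list holds genes that ERK activity induces and that in turn damp it, and some members of the cascade and other RAS GTPase-activating proteins. Of 20 tested, 11 rose and 1 fell (median 0.80; 7 higher without DRG5), with a summed level of 1356, 1022, and 947 CPM in DRG3, DRG4, and DRG5 and 1611 to 1803 CPM (median 1671) in PNs. *Dusp6*, the ERK phosphatase, was at 21.2, 32.7, and 36.3 CPM in controls and 44.5 to 92.9 CPM (median 72.9) in PNs, and *Spry4*, an inhibitor of receptor signaling to RAS, at 36.5, 24.6, and 27.8 CPM and 53 to 99.05 CPM (median 74.7) (log2 fold change 1.2 and 1.35, edgeR adjusted p = 0.00763 and 0.00201). *Spred1*, which brings neurofibromin to the membrane, rose by 1.63 (edgeR adjusted p = 0.00113). Among the rises, *Map2k1*, the ERK-activating kinase MEK1, and *Rasa2*, a RAS GTPase-activating protein, belong to the cascade rather than to its feedback, and rose by 0.51 and 0.84 (edgeR adjusted p = 0.027 and 0.0025). The ETS transcription factors *Etv1*, *Etv4*, and *Etv5* rose by 1.54, 3.2, and 1.09 (edgeR adjusted p = 0.00179, 0.00108, and 0.0101), with *Etv4* at 0.43, 0.952, and 0.669 CPM in controls and 3.47 to 11.6 CPM (median 5.45) in PNs. *Dusp4*, a nuclear phosphatase of ERK, was the 1 member that fell, from 20.7, 18.2, and 21.3 CPM to 4.31 to 9.81 CPM (median 6.75) (log2 fold change -1.53, edgeR adjusted p = 0.00187). By leaving out 1 library, the edgeR adjusted p passed above the threshold for *Map2k1* without DRG3 (0.0618), DRG4 (0.0635), and DRG5 (0.103), and *Etv5* without DRG5 (0.0549). *Dusp6* lost its call in an edgeR fit of all 14 libraries (adjusted p = 0.0727). *Map2k1* lost its call in an edgeR fit of all 14 libraries (adjusted p = 0.0797).

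Of 25 immediate early genes, 13 fell and 0 rose (median -0.92), with 1 higher without DRG3 and with the trend of length and GC content removed, 7 lower with the trend of length and GC content removed, 8 lower without DRG5. Their summed level overlapped between the groups, at 1229, 1164, and 1743 CPM in DRG3, DRG4, and DRG5 and 693 to 1169 CPM (median 988) in PNs. *Dusp1*, a phosphatase of stress kinases, was at 109.9, 121, and 199 CPM in controls and 17.9 to 34.9 CPM (median 23.6) in PNs, and fell (log2 fold change -2.49, standard error 0.26, edgeR adjusted p = 0.000135). *Fosb*, a partner of JUN proteins, and *Klf2*, a flow-responsive factor of endothelium, fell (log2 fold change -3.4 and -2.9, edgeR adjusted p = 0.000411 and 0.00108). *Fos* fell by 1.34, from 15.1, 34.8, and 60.7 CPM to 9.61 to 18.8 CPM (median 14.3) (edgeR adjusted p = 0.021), where DRG3 lay among the PNs. *Jun* and *Egr1* did not pass (edgeR adjusted p = 0.152 and 0.102). An edgeR adjusted p above the threshold was obtained for *Fos* without DRG4 (0.0553) and DRG5 (0.153). *Fos* lost its call in limma-voom (adjusted p = 0.0587) and with the trend of length and GC content removed (0.0633).

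**Figure D4:**
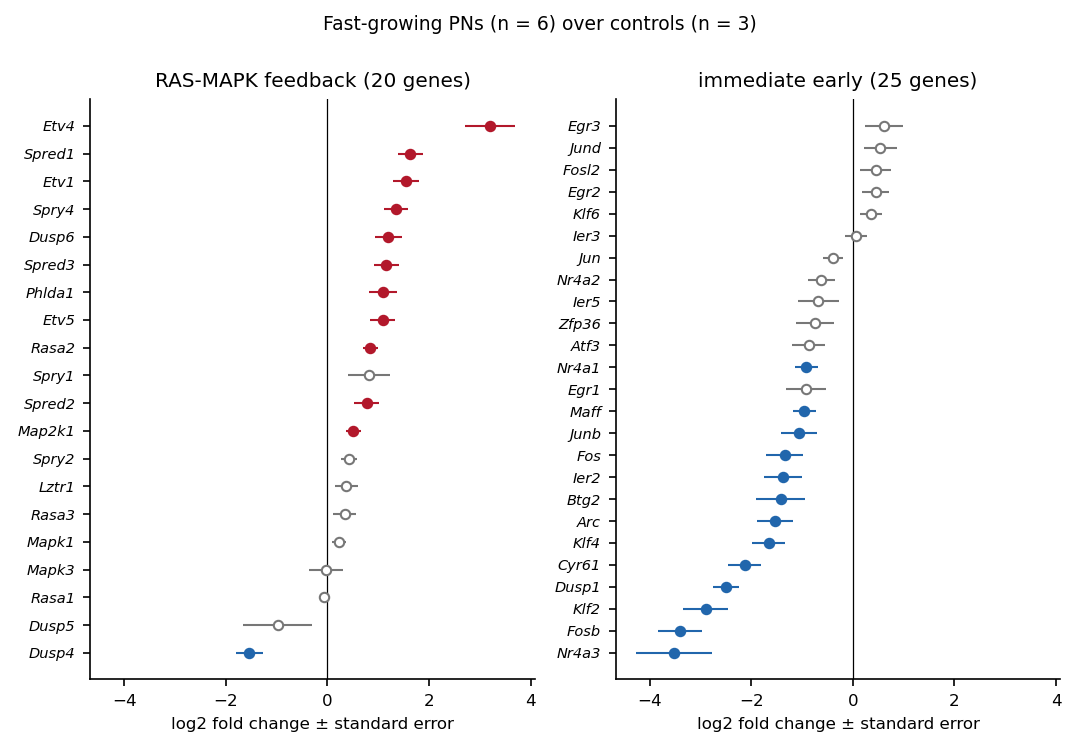
Log2 fold change of fast-growing PNs (n = 6) over controls (n = 3) for each tested member of the RAS-MAPK feedback and immediate early lists, with bars of 1 standard error from edgeR and filled symbols for members at an adjusted p under 0.05. Feedback genes lie mostly right of 0 and immediate early genes mostly left of it.

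Of 16 genes of the EGF receptor and neuregulin family, 5 rose and 4 fell (median 0.16). *Erbb3* and *Erbb2*, which together form the neuregulin receptor of SCs, rose by 2.38 and 1.73, and *Erbb3* was at 35.6, 22.5, and 16.6 CPM in controls and 116 to 148 CPM (median 128) in PNs (edgeR adjusted p = 0.000104 and 0.00119). *Btc*, betacellulin, a ligand of the EGF receptor, rose from 2.75, 3.71, and 3.01 CPM to 16.2 to 40.6 CPM (median 19.1) (log2 fold change 2.84, edgeR adjusted p = 0.000399). *Egfr* itself had a log2 fold change of 1.15 that did not pass (edgeR adjusted p = 0.0517), and *Nrg1*, the axonal ligand, one of -0.24 (edgeR adjusted p = 0.835). *Ereg*, epiregulin, another ligand, had 2 counts in the controls and 456 in the PNs, a ratio of 79.6 (95% counting interval 21.9 to 659.6). This interval leaves out the spread between libraries. *Nrg4*, a neuregulin of brown fat, fell by 3.65 (edgeR adjusted p = 0.00204). Among 19 genes of PDGF, KIT, and FGF signaling, 3 rose and 3 fell (median 0.24; 5 higher without PN 1071). *Pdgfa*, the ligand of the fibroblast receptor, rose by 1.41 and *Fgf10*, a growth factor of fat and epithelia, fell by 3.03 (edgeR adjusted p = 0.00947 and 0.00234), while *Kitl*, the mast cell growth factor, did not pass (edgeR adjusted p = 0.0627). *Ereg* lost its call in limma-voom (adjusted p = 0.176). *Egfr* was called higher with a stricter filter (adjusted p = 0.0478), in DESeq2 (0.0149), without DRG3 (0.0298), without PN 1071 (0.0139), and without PNs 1071 and 1191 (0.0233). *Kitl* was called higher in DESeq2 (adjusted p = 0.0367), in an edgeR fit of all 14 libraries (0.0172), without PN 1071 (0.0371), without PN 1179 (0.0458), without PN 1191 (0.0256), and without PNs 1071 and 1191 (0.0107).

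Of 15 neurotrophin and GDNF family genes, 4 rose and 2 fell (median 0.76; 1 higher without DRG5, 2 higher without DRG4, 1 lower without DRG3, DRG5, PN 1053, PN 1179, PN 1214, or PN 1216). *Gdnf*, which denervated SCs make, was at 0.947, 0, and 0.335 CPM in controls and 1.504 to 8.23 CPM (median 4.02) in PNs (log2 fold change 3.33, edgeR adjusted p = 0.0158). *Ntf3*, neurotrophin 3, had 53 counts in the controls and 3 in the PNs, a ratio of 50.6 (95% counting interval 16.4 to 253.0, without the spread between libraries). *Ret*, the signaling receptor of GDNF, did not pass the test. Of 13 hedgehog pathway genes, 7 rose and 3 fell (median 1.03; 3 higher without DRG4, 4 higher without DRG5, 1 lower without DRG5). Beside *Dhh*, the ligand *Shh* rose by 2.19, from 7.58, 4.38, and 5.47 CPM to 8.53 to 45.1 CPM (median 27.5), and the target gene *Gli1* by 1.54, from 23.6, 8.76, and 13.4 CPM to 20.9 to 75.7 CPM (median 38.9) (edgeR adjusted p = 0.00596 and 0.0249). *Hhip*, a decoy that binds hedgehog ligands, fell by 2.28 (edgeR adjusted p = 0.00631). The edgeR adjusted p, in parentheses, was over the threshold for *Gdnf* without DRG5 (0.0649), and *Gli1* without DRG4 (0.0975) and DRG5 (0.091). *Gdnf* lost its call in limma-voom (adjusted p = 0.0557).

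Of 29 WNT genes, 5 rose and 8 fell (median 0.20; 2 higher without DRG4 or DRG5, 3 higher without PN 1053 or PN 1179, 3 lower without DRG4, 4 lower without DRG5, 5 lower without PN 1053), among them the receptors *Fzd1*, which rose by 2.16, and *Fzd4*, which fell by 1.51 (edgeR adjusted p = 0.000244 and 0.00163). The feedback target *Axin2* fell from 16.7, 20.4, and 16.8 CPM to 9.09 to 14.3 CPM (median 9.72) (edgeR adjusted p = 0.0191). Of 27 TGF-beta and BMP genes, 5 rose and 5 fell (median -0.10; 2 higher without DRG4, 3 higher without DRG3 or DRG5 and with the trend of length and GC content removed, 2 lower without DRG5, PN 1071, or PN 1179, 3 lower without PN 1191 or PN 1214 and with the trend of length and GC content removed). *Bmp7* rose by 1.51, *Fst*, follistatin, fell by 1.93, and *Tgfb1* did not pass (edgeR adjusted p = 0.00505, 0.000197, and 0.472). Of 17 Hippo genes, 4 rose and 2 fell (median 0.33; 0 higher with the trend of length and GC content removed, 1 higher without DRG4, DRG5, PN 1053, or PN 1216, 2 higher without PN 1179 or PN 1214, 1 lower without DRG4, DRG5, PN 1071, PN 1179, PN 1191, PN 1214, or PN 1216 and with the trend of length and GC content removed), and neither the effector *Yap1* nor the tumor suppressor *Nf2* passed (edgeR adjusted p = 0.21 and 0.056). Of 16 IGF genes, *Igfbp3*, which binds IGFs in the circulation, rose by 1.5 and *H19*, an imprinted noncoding RNA, fell by 3.84 (edgeR adjusted p = 0.0428 and 0.00199; median of the list -0.14; 2 lower without DRG4 or PN 1216), and *Igf1* and *Igf2* did not pass (edgeR adjusted p = 0.827 and 0.0629). Of 26 HOX genes, 2 rose and 3 fell (median -0.0061; 0 higher without DRG4 or DRG5, 1 higher without DRG3 or PN 1053, 4 higher without PN 1179, 1 lower without DRG5), and *Hoxa5*, of the cervical and thoracic code, fell from 8.61, 7.04, and 13.6 CPM to 1.83 to 6.496 CPM (median 3.31) (edgeR adjusted p = 0.0151). Calls lost with 1 library left out, with the edgeR adjusted p in parentheses, were those of *Axin2* without DRG4 (0.0897), *Igfbp3* without DRG3 (0.11), DRG5 (0.102), PN 1053 (0.0706), PN 1179 (0.0528), PN 1191 (0.0618), and PN 1216 (0.0565), and *Hoxa5* without DRG5 (0.0884). *Axin2* lost its call without PNs 1071 and 1191 (adjusted p = 0.0567). *Yap1* was called higher without DRG3 (adjusted p = 0.0302). *Nf2* was called higher in DESeq2 (adjusted p = 0.0272) and without PN 1071 (0.0472). *Igf2* was called lower in DESeq2 (adjusted p = 0.031), in limma-voom (0.0479), and without PN 1216 (0.0406).

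Of 24 JAK-STAT genes of cytokine signaling, 6 rose and 1 fell (median 0.15; 2 lower without PN 1179 or PN 1191, 4 lower without DRG3). *Il6st*, the shared receptor chain gp130, was at 394, 355, and 345 CPM in controls and 875 to 964 CPM (median 927) in PNs, and *Stat3* at 142, 137, and 112 CPM and 184 to 291 CPM (median 233) (log2 fold change 1.34 and 0.85, edgeR adjusted p = 9.19e-05 and 0.00517). *Osmr*, the oncostatin M receptor, rose by 1.3 (edgeR adjusted p = 0.000491). *Socs3*, the target that turns this signal off, did not pass (edgeR adjusted p = 0.39), and *Cish*, the target of STAT5, fell by 2.32 (edgeR adjusted p = 0.000225). None of 19 NF-κB genes rose and 2 fell (median -0.46; 0 lower without DRG4, DRG5, or PN 1053 and with the trend of length and GC content removed, 1 lower without PN 1214 or PN 1216, 7 lower without DRG3; 4 lower in DESeq2). *Nfkb1* and *Rela*, its main subunits, had log2 fold changes of -0.077 and 0.31, and the feedback inhibitor *Nfkbia* one of -0.88 (edgeR adjusted p = 0.813, 0.159, and 0.071). *Nfkbia* was called lower in DESeq2 (adjusted p = 0.0452) and without DRG3 (0.0397).

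Of 15 glucocorticoid response genes, 5 fell and 0 rose (median 0.0046; 3 lower with the trend of length and GC content removed), led by *Pdk4*, a kinase that shifts muscle and fat to lipid fuel, which fell by 3.67 (edgeR adjusted p = 6.33e-05). The classical targets *Fkbp5* and *Tsc22d3* did not pass (edgeR adjusted p = 0.206 and 0.464). Of 16 heat shock genes, 5 fell and 0 rose (median -0.11; 1 higher with the trend of length and GC content removed), with *Dnajb1*, a cochaperone, at 309, 161, and 140.2 CPM in controls and 35.99 to 72 CPM (median 58.6) in PNs (edgeR adjusted p = 0.000876). Of 19 clock genes, 7 rose and 4 fell (median 0.44). The repressors *Nr1d1* and *Nr1d2* rose by 2.02 and 1.62, with *Nr1d2* at 31.1, 32.1, and 32.02 CPM in controls and 73.7 to 127 CPM (median 99.4) in PNs (edgeR adjusted p = 0.000434 and 0.000357). *Dbp*, a clock output factor, rose by 1.5 (edgeR adjusted p = 0.0154), and *Nfil3*, its antagonist, fell by 2.21, from 22.9, 15.04, and 27.7 CPM to 3.59 to 5.56 CPM (median 4.63) (edgeR adjusted p = 9.91e-05). *Arntl* and *Per1* did not pass (edgeR adjusted p = 0.475 and 0.46). By leaving out 1 library, the edgeR adjusted p passed above the threshold for *Dbp* without DRG4 (0.0622) and DRG5 (0.0647). *Dbp* lost its call in an edgeR fit of all 14 libraries (adjusted p = 0.0747).

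Genes of cell division did not rise together. Of 31 cell cycle genes, 4 rose and 3 fell (median -0.51; 0 lower without DRG5, 1 lower without PN 1053, PN 1179, or PN 1214, 5 lower without DRG3, 6 lower without PN 1191). *Mki67* and *Top2a*, which mark dividing cells, had log2 fold changes of -1.27 and -0.61 (edgeR adjusted p = 0.179 and 0.554), and *Mki67* was at 43.1, 134, and 341 CPM in the controls, highest in DRG5, and 25.7 to 180.3 CPM (median 55.2) in PNs. *Ccnd1*, cyclin D1, stood out, from 44.5, 77.3, and 58.7 CPM in controls to 330.2 to 853 CPM (median 491) in PNs (log2 fold change 3.12, standard error 0.37, edgeR adjusted p = 0.000266). Its kinase partner *Cdk6* rose by 1.62 and the transcription factor *E2f1* by 1.04 (edgeR adjusted p = 0.00957 and 0.00125). Of 13 cytokinesis genes, *Racgap1* and *Anln* rose and 0 fell (median -0.19; 1 higher without DRG4). Among 14 tumor suppressors, 2 rose, with *Cdkn2b* higher by 2.15, and *Eed* fell (edgeR adjusted p = 0.00215 and 0.04; median of the list 0.18; 5 higher without PN 1071). *Cdkn2a*, whose loss marks the step to atypical tumors, was near the floor in controls, at 0.172, 0.19, and 0.335 CPM, and at 0.262 to 1.42 CPM (median 0.706) in PNs (edgeR adjusted p = 0.0845). An edgeR adjusted p above the threshold was obtained for *Anln* without DRG3 (0.0532) and DRG4 (0.092), and *Eed* without DRG4 (0.13), DRG5 (0.184), PN 1053 (0.0749), PN 1071 (0.0666), PN 1179 (0.079), PN 1214 (0.07), and PN 1216 (0.0581). *Eed* lost its call with upper-quartile factors (adjusted p = 0.0663), without a filter (0.0753), in an edgeR fit of all 14 libraries (0.0704), and with the trend of length and GC content removed (0.214). *Mki67* was called lower without PN 1191 (adjusted p = 0.0359) and without PNs 1071 and 1191 (0.0477). *Cdkn2a* was called higher with the trend of length and GC content removed (adjusted p = 0.0237), without PN 1071 (0.0455), and without PNs 1071 and 1191 (0.0434).

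Of 15 BCL2 family genes, 5 rose and 1 fell (median 0.27; 2 higher without DRG4, 3 higher without DRG5, 0 lower with the trend of length and GC content removed). The survival gene *Bcl2* rose by 0.86, from 109.6, 97.3, and 75.1 CPM to 163 to 190.5 CPM (median 168) (edgeR adjusted p = 0.0014), and the proapoptotic *Bcl2l11* did not pass (edgeR adjusted p = 0.0503). Of 22 cholesterol synthesis genes, 1 rose and 2 fell (median 0.044; 0 higher without DRG4 or DRG5). *Insig1*, which holds the pathway's regulator back, fell by 1.54 (edgeR adjusted p = 0.00149). Of 24 potassium channel genes, 7 rose and 1 fell (median 0.38; 0 lower without DRG5). *Kcna1*, a channel of the axon beside the node and of SCs, was at 706, 343, and 283 CPM in controls and 1743 to 2661 CPM (median 2064) in PNs (log2 fold change 2.24, edgeR adjusted p = 0.000764). Of 33 axon guidance genes, 6 rose and 3 fell (median 0.13; 5 lower without PN 1191), with *Sema3e*, a repulsive ligand of plexin D1, at 19.2, 6.66, and 10.2 CPM and 40.4 to 54.6 CPM (median 51.7) (edgeR adjusted p = 0.00108). Of 7 natriuretic peptide genes, 3 rose and 3 fell (median 0.074). *Corin* was among the rises, and the receptors *Npr3* and *Npr1* fell (log2 fold change -2.73 and -2.28, edgeR adjusted p = 0.00199 and 0.00389). *Npr3*, which clears natriuretic peptides and is abundant in fat, was at 38.1, 33.3, and 26.7 CPM in controls and 1.94 to 12.05 CPM (median 3.899) in PNs. *Bcl2l11* was called higher with a stricter filter (adjusted p = 0.049), in DESeq2 (0.0188), without PN 1071 (0.0119), and without PNs 1071 and 1191 (0.0204).

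**Figure D5:**
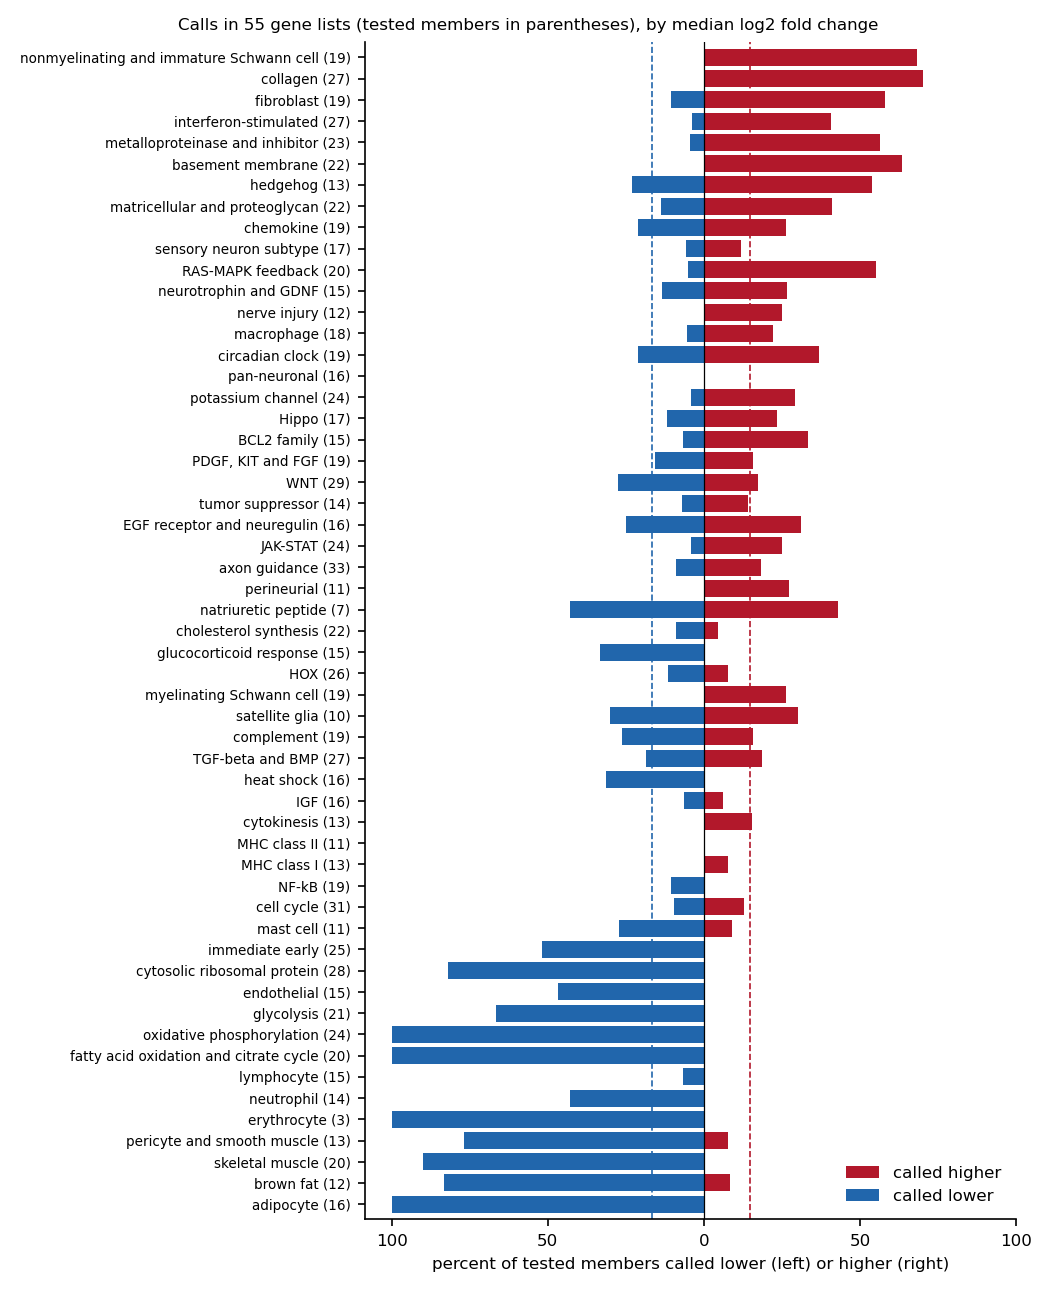
Percent of tested members called higher (right) and lower (left) in fast-growing PNs at an edgeR adjusted p under 0.05 for each of 55 gene lists, ordered by the median log2 fold change of the list, with dashed lines at the 14.8% and 16.7% of all 16037 genes. The nonmyelinating SC, collagen, and fibroblast lists are at the top and the adipocyte, brown fat, and skeletal muscle lists at the bottom.

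Fast-growing PNs were then set against the PNs most like them, the 5 slow-growing ones, in a fit of those 11 libraries. At the same threshold, 196 of 15465 genes (1.27%) differed, 124 higher and 72 lower in fast-growing PNs. The fast-growing PNs are the same libraries as in the comparison with controls. Their CPM were scaled apart from that comparison, so that levels differ slightly between the 2. The count depended on single libraries. It was 2 without the slow-growing PN 1079, 1202, or 1206 or the fast-growing PN 1053 or 1191, 3 without PN 1179, 8 without PN 1216, and 65 without PN 1214, whereas it was 372 without PN 1071, 578 without the slow-growing PN 1203, and 1194 without the slow-growing PN 1198A. DESeq2 called 1592 genes, and with the muscle and fat levels as covariates edgeR called 0, with 1551 at an unadjusted p under 0.05, so that no call named here held in that fit. *Oasl2* was at 36.3 to 43.8 CPM (median 40.8) in slow-growing PNs and 98.1 to 146 CPM (median 129) in fast-growing PNs (log2 fold change 1.64, standard error 0.13, edgeR adjusted p = 0.00104). *Lbh*, a transcription cofactor, was at 61.5 to 80.2 CPM (median 72.4) in slow-growing PNs and 151 to 227 CPM (median 178) in fast-growing PNs (log2 fold change 1.37, edgeR adjusted p = 0.00473). *Cspg5*, a neural proteoglycan, was at 0.997 to 2.12 CPM (median 1.12) in slow-growing PNs and 4.32 to 6.26 CPM (median 5.18) in fast-growing PNs, and *Ifit1* and *Tmprss5*, a serine protease of SCs, were higher by 1.48 and 1.21 on the log2 scale in fast-growing PNs (edgeR adjusted p = 0.0156 for these and *Cspg5*). Against controls, *Lbh*, *Tmprss5*, and *Cspg5* had risen by 1.82, 2.69, and 2.84 in fast-growing PNs (edgeR adjusted p = 0.000149, 0.000174, and 0.00013). *Klk9*, *Gfap*, *Gldn*, *Col28a1*, *Mmp2*, *Timp1*, *Isg15*, and *Gdnf* were also higher in fast-growing PNs and *Pnpla2* was lower, with edgeR adjusted p between 0.0317 and 0.0485. Genes that did not pass this test included *Corin*, with 4.02 to 36.3 CPM (median 7.06) in slow-growing PNs and 43.2 to 71.3 CPM (median 48.8) in fast-growing PNs (edgeR adjusted p = 0.0625), and *Ccnd1*, with 43.7 to 426 CPM (median 85.3) in slow-growing PNs and 342 to 855 CPM (median 494) in fast-growing PNs (edgeR adjusted p = 0.0971). The 2 groups did not overlap in *Corin*, but it was named for its rise against controls in the same fast-growing PNs. The share of all genes without overlap between fast-growing and slow-growing PNs was not counted.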

How the data were processed

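Whole DRGs or PNs were profiled by bulk RNA-seq. Per the labels, libraries came from a NuGEN Ovation amplification kit. The deposited counts per gene are whole numbers, and the submitters' processing notes name TopHat2 (2.0.9), featureCounts (1.5.2), edgeR (3.16.5), and the mm10 build. A second deposited table holds log2 values that the authors made after TMM scaling, used only for an alternative fit, and 10 of its columns were identified by a header that is a bare mouse number. Members and gene lists were chosen with earlier results of these data known.

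Counts of the 9 libraries were fitted in edgeR 4.0.16 (R 4.3.3) with TMM factors, filterByExpr, and the quasi-likelihood test, and called at a Benjamini-Hochberg adjusted p under 0.05. Fast-growing and slow-growing PNs were fitted likewise over 11 libraries. Levels of slow-growing PNs, and of fast-growing PNs in that comparison, were scaled apart from the 9 libraries. Standard errors are those of the log2 fold change. Alternatives used DESeq2 1.42.0, limma 3.58.1, other scalings and filters, covariates, a correction for length and GC content, and fits without single libraries. On simulated data holding 200 genes shifted by 2 on the log2 scale, this test recovered 79% of them, with 4.82% false calls. The simulation shifted only these 200 of 15857 genes. Its libraries were drawn independently from the dispersion trend, without outlying libraries or a difference in muscle and fat levels. Its share of false calls therefore need not hold for these data. Total counts were between 9596773 and 17594164 per library. Genes were named by rule as *Nf1*, the 10 largest rises and falls that separated the groups with a mean log2 CPM of 3 or more, the lead genes and up to 3 called members with the lowest p of each list, and 5 genes with the lowest p between fast-growing and slow-growing PNs. Genes outside the rule are *Rn45s*, *Timp4*, *Lyve1*, *Ifi27*, *Ifit3*, *Map2k1*, *Rasa2*, *Dusp4*, *Ereg*, *Nrg4*, *Cdk6*, *Xist*, *Ddx3y*, *Kdm5d*, *Uba1y*, and *Uba1*, chosen after their values were seen. Some genes that the rule names are not reported here. Promoters are RefSeq sequences of GRCm38.p6, with 250 bases before each start searched. Similar genes, such as the *Ifit*, *Mup*, and ribosomal protein families, may share reads. Library preparation dates were not given in the sources used here, so that a preparation batch and the group cannot be told apart.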

Additional observations from a re-analysis of the deposited data

Results flagged for a closer look

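Among the 6 fast-growing PNs, a library was named when its gap to the next one took up more of the group's range than Dixon's test allows at 95%. Chance alone does so in about 1 of 20 groups if values are normally distributed. CPM were used here without a log scale, so that this rate need not hold and is no measure of excess. A library was named for 4 of 55 summed lists and 31 of 209 genes named here. PN 1191 was the highest fast-growing PN in the summed tumor suppressor list (1952 CPM), *Cd209b* (2.29 CPM), *Thbs2* (646 CPM), *Postn* (2225 CPM), *Adipoq* (29.7 CPM), *Lyve1* (41.3 CPM), and *Cd3e* (22.9 CPM). PN 1191 was the highest fast-growing PN also in *Mcpt4* (19.4 CPM), *Cpa3* (28.98 CPM), *Ccl2* (89.1 CPM), *Btc* (40.6 CPM), *Pdgfa* (117 CPM), *Kitl* (143 CPM), and *Ntf3* (0.152 CPM, below the 3-count floor of that library). PN 1191 was the highest fast-growing PN also in *Mki67* (180.3 CPM), *Top2a* (78.3 CPM), *E2f1* (18.8 CPM), *Kcna1* (2661 CPM), *Npr3* (12.05 CPM), and *Npr1* (11.1 CPM). PN 1071 was the highest fast-growing PN in the summed skeletal muscle list (9255 CPM), *Pvalb* (46.4 CPM), *Acta1* (308 CPM), and *Ckm* (85.1 CPM). PN 1071 was the lowest fast-growing PN in the summed brown fat list (232 CPM). PN 1216 was the highest fast-growing PN in the summed glucocorticoid response list (1269 CPM), *Myl3* (1.69 CPM), *Tsc22d3* (217 CPM), and *Xist* (3322 CPM). PN 1179 was the highest fast-growing PN in *S100a8* (36.1 CPM), *Nkg7* (4.61 CPM), and *Bcl2* (190.5 CPM). PN 1214 was the highest fast-growing PN in *Cidea* (4.95 CPM) and *Ucp1* (76.2 CPM). PN 1053 was the highest fast-growing PN in *Etv1* (226 CPM).

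Fast-growing and slow-growing PNs differed in 14 of the genes named by rule, tested in edgeR over 11 libraries, where 1.27% of all genes were called. *Oasl2*, *Lbh*, *Tmprss5*, *Ifit1*, and *Cspg5* were named for the lowest p in this comparison, so that their calls were fixed by the choice. *Klk9* and others were named for their change against controls, which used the same fast-growing PN libraries. The count of 14 therefore cannot be set against the 1.27% as a test. Higher in fast-growing PNs were *Klk9* (log2 fold change 3.97, edgeR adjusted p = 0.0403), *Gfap* (log2 fold change 2.47, edgeR adjusted p = 0.0317), *Gldn* (log2 fold change 1.19, edgeR adjusted p = 0.0484), *Col28a1* (log2 fold change 2.2, edgeR adjusted p = 0.0403), *Mmp2* (log2 fold change 1.97, edgeR adjusted p = 0.0449), and *Timp1* (log2 fold change 2.63, edgeR adjusted p = 0.0485). So were *Ifit1* (log2 fold change 1.48, edgeR adjusted p = 0.0156), *Oasl2* (log2 fold change 1.64, edgeR adjusted p = 0.00104), *Isg15* (log2 fold change 1.3, edgeR adjusted p = 0.0449), *Gdnf* (log2 fold change 2.82, edgeR adjusted p = 0.0317), *Lbh* (log2 fold change 1.37, edgeR adjusted p = 0.00473), *Cspg5* (log2 fold change 1.9, edgeR adjusted p = 0.0156), and *Tmprss5* (log2 fold change 1.21, edgeR adjusted p = 0.0156). *Pnpla2* had a log2 fold change of -2.38 (edgeR adjusted p = 0.0484). These calls rest on the libraries named with that comparison, and no cause was tested.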

How the results depend on the processing

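For fast-growing PNs against controls, the number of changed genes stayed within 1.5-fold of 5043 under RLE or upper-quartile factors (5058 and 4974), no or a stricter filter (4921 and 5006), DESeq2 (5868), limma-voom (4790), limma-trend on the deposited log2 values (5119), all 14 libraries in 1 fit (4801), and removal of the trend of length and GC content (4502, with 52.8% instead of 47.0% of calls higher). At an adjusted p under 0.01 there were 2874 (1264 higher and 1610 lower), and against a log2 fold change of 1 (glmTreat) there were 1311 (498 and 813). With 1 library left out, the counts were 3342 to 5247 in all, 1522 to 2438 higher, and 1666 to 2809 lower. With muscle and fat levels as covariates, 0 genes were called in edgeR, 0 higher and 0 lower, and 1007 had an unadjusted p under 0.05. In that fit, the log2 fold change turned positive, without a call, for *Cidea* (2.44), *Adig* (1.66), *Cox8b* (0.62), *Mup10* (20.74), *A530016L24Rik* (0.40), *Timp4* (2.77), *Adipoq* (8.18), *Plin1* (7.5), *Ucp1* (11.88), *Cpt1b* (0.62), *Slc4a1* (0.98), *Lyve1* (2.81), *Nrg4* (0.84), and *Ntf3* (0.058), and negative for *Dcn* (-0.95), *Cldn1* (-1.25), *Isg15* (-0.058), *Gli1* (-1.37), *Igfbp3* (-0.73), and *Dbp* (-0.035). The covariates were mean log2 levels of the skeletal muscle list and of the brown fat and adipocyte lists. *Cidea*, *Cox8b*, *Ucp1*, *Adipoq*, and *Plin1* are members of the fat lists. Their values in that fit are therefore not separate results, and their turned direction is not a reversal. The groups do not overlap in these covariates, and the cause was not tested. *Mup10* was not counted in any fast-growing PN, so that its value in that fit is not a measured fold change. Of 155 called genes named here, 4 lost their call with the length and GC trend removed and 101 lost it in no fit but the covariate one. Counts of list members that moved by over 1.5-fold were, with a stricter filter, sensory neuron subtype 1 higher (from 2), neutrophil 3 lower (from 6), lymphocyte 0 lower (from 1), brown fat 2 higher (from 1), chemokine 2 lower (from 4), cytokinesis 1 lower (from 0), and HOX 5 lower (from 3). They were, in limma-voom, sensory neuron subtype 1 higher (from 2), macrophage 2 higher (from 4), neutrophil 0 lower (from 6), mast cell 0 higher (from 1), lymphocyte 0 lower (from 1), chemokine 3 higher (from 5), chemokine 2 lower (from 4), collagen 1 lower (from 0), metalloproteinase and inhibitor 2 lower (from 1), neurotrophin and GDNF 2 higher (from 4), IGF 2 lower (from 1), Hippo 1 lower (from 2), cytokinesis 1 lower (from 0), HOX 1 higher (from 2), and HOX 5 lower (from 3). They were, in DESeq2, perineurial 1 lower (from 0), lymphocyte 5 lower (from 1), brown fat 2 higher (from 1), JAK-STAT 2 lower (from 1), NF-κB 4 lower (from 2), tumor suppressor 4 higher (from 2), cell cycle 5 lower (from 3), cytokinesis 1 lower (from 0), HOX 5 lower (from 3), and nerve injury 1 lower (from 0). They were, in an edgeR fit of all 14 libraries, perineurial 1 lower (from 0), macrophage 2 higher (from 4), mast cell 0 higher (from 1), lymphocyte 2 lower (from 1), heat shock 1 higher (from 0), neurotrophin and GDNF 1 lower (from 2), TGF-beta and BMP 3 lower (from 5), Hippo 2 higher (from 4), Hippo 1 lower (from 2), tumor suppressor 0 lower (from 1), and cholesterol synthesis 1 lower (from 2). They were, without PNs 1071 and 1191, macrophage 2 lower (from 1), neutrophil 0 lower (from 6), mast cell 5 lower (from 3), lymphocyte 4 lower (from 1), NF-κB 1 lower (from 2), complement 5 higher (from 3), collagen 1 lower (from 0), metalloproteinase and inhibitor 2 lower (from 1), PDGF, KIT and FGF 5 higher (from 3), TGF-beta and BMP 2 lower (from 5), Hippo 1 lower (from 2), tumor suppressor 4 higher (from 2), and cell cycle 5 lower (from 3). They were, in limma-trend on the deposited log2 values, neutrophil 1 lower (from 6), lymphocyte 0 lower (from 1), brown fat 2 higher (from 1), chemokine 2 lower (from 4), matricellular and proteoglycan 5 lower (from 3), metalloproteinase and inhibitor 2 lower (from 1), cytokinesis 1 lower (from 0), and HOX 5 lower (from 3). They were, with upper-quartile factors, Hippo 2 higher (from 4) and tumor suppressor 0 lower (from 1). They were, without a filter, Hippo 2 higher (from 4), tumor suppressor 0 lower (from 1), and cell cycle 1 lower (from 3). Fast-growing against slow-growing PNs gave 130 genes with RLE factors, 137 without a filter, 1592 with DESeq2, 2 to 1194 with 1 library left out, and 0 with the covariates (edgeR, 1551 at an unadjusted p under 0.05 against 3155 without covariates). Summed levels of 26 lists separated the groups, against 16 by the mean log2(CPM + 1) of the members. No paired analysis was possible because the labels give no replicate numbers shared between groups. At 3 counts per library, genes below 0.165 to 0.335 CPM were not measurable.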

Other observations

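Y-linked and X-inactivation transcripts of the libraries belong to no comparison of the study and are given as values. *Xist*, the RNA of the inactive X chromosome, was at 0.947, 1.71, and 2451 CPM in DRG3, DRG4, and DRG5, and *Ddx3y*, a Y-linked helicase, at 49.2, 66.04, and 0 CPM. In fast-growing PNs, *Xist* was at 1.46 to 3322 CPM (median 3.23), with the highest level in PN 1216, and *Ddx3y* at 0 to 89.02 CPM (median 63.3). PN 1214 had 0 counts of *Ddx3y* and of *Kdm5d*, a Y-linked demethylase, and was at 2.51 CPM of *Xist*, so that neither transcript was at a high level there. *Uba1y*, a Y-linked ubiquitin-activating enzyme gene, was at 1.03, 0.761, and 0.892 CPM in the controls and 9.15 to 13.7 CPM (median 11.5) in fast-growing PNs (log2 fold change 3.68, standard error 0.24, edgeR adjusted p = 1.85e-05), and its level in slow-growing PNs was 11.1 to 16.05 CPM (median 12.8). It was therefore higher in PNs with and without *Ddx3y* counts than in controls with and without them. *Uba1y* has a similar X-linked copy, *Uba1*, so the split of reads between them is uncertain, and the pattern was found after the values were seen.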
